A study of Bubalus bubalis with 3 samples.

Results

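miR-146a and miR-146b (bta-miR-146a and bta-miR-146b in the table, after the bovine names) are microRNAs transcribed, in human and cattle, from separate genes on different chromosomes. They were selected by name from the deposited table and are 2 of its 622 listed names, 396 of which are known bovine miRNAs. Both were found, and both passed the minimum mean of 10 TPM that left 166 names for the comparisons with other miRNAs (the tested names). The samples were fat (adipose tissue) from calves of the water buffalo Bubalus bubalis, of the Chinese swamp type, all aged 6 months, with no treatment named in the labels and no other group. There were 3 small RNA libraries, called libraries 1, 2 and 3 after their titles. The labels name neither the fat depot nor whether each sample came from a separate animal, so every SD describes how far these samples differ, possibly for technical reasons alone, and p-values are bound by the same limit.

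A mature miRNA guides a silencing complex to messenger RNAs, mainly by pairing through its seed, a short stretch near its 5′ end. miR-146a and miR-146b share the seed and differ in only a few bases towards the 3′ end, so their predicted targets overlap widely. In human and mouse cells NF-kB induces miR-146a, which then represses the signalling proteins IRAK1 and TRAF6 and so limits the response to Toll-like receptor and interleukin-1 signals. miR-146b is also raised by inflammatory signals and, in mouse and human preadipocytes in culture, promotes differentiation into fat cells. Both are made by white blood cells, and miR-146b is also made by fat cells. Bulk tissue does not show which cell made a miRNA, and fewer cells of a type cannot be told apart from less RNA per cell.

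Values are TPM as deposited, each proportional to the share that a name took of the reads its library gave to the listed names (transcripts per 1000000). About 6860000, 6770000 and 5480000 such reads stood behind libraries 1, 2 and 3, as judged from the spacing of low values. On the log2(TPM + 1) scale 94.0% of the tested names were under their own mean in library 2, so levels, spread and deviations are also given after division by size factors (medians of ratios over the tested names), which were 1.39, 0.609 and 1.16.

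miR-146a was present at 1048.9, 223 and 403.9 TPM in libraries 1, 2 and 3, a mean of 558.6 ± 434 TPM (SD, n = 3). These levels correspond to about 7200, 1510 and 2220 reads, so counting error was small, with a 95% Wilson interval of 0.102% to 0.107% around the 0.105% of all TPM in library 1. Library 1 stood highest, at 4.70 times library 2 and 2.60 times library 3, and without it the mean was 313 TPM. After size factors the levels were 756, 366 and 349 TPM, which put library 1 at 2.06 times library 2 and 2.16 times library 3. Library 2 was lowest as deposited and library 3 after size factors.

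miR-146b was present at 362.5, 91.1 and 74.6 TPM in the same libraries, a mean of 176 ± 162 TPM (SD, n = 3). About 2490, 620 and 410 reads lay behind these values. Library 1 again stood highest, at 3.98 times library 2 and 4.86 times library 3, but here library 3 and not library 2 was lowest. Without library 1 the mean was 82.8 TPM. After size factors the levels were 261, 150 and 64.5 TPM, with library 1 at 1.74 times library 2 and 4.05 times library 3. As deposited, the 3 values of miR-146b overlapped those of miR-146a, because miR-146b in library 1 exceeded miR-146a in library 2.

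In the order of mean TPM over all listed names miR-146a ranked 53 and miR-146b ranked 81. Within single libraries miR-146a held ranks 43, 62 and 62, and miR-146b ranks 67, 85 and 101. The positions are loose, since the means of 49 other names lay within 1 SD of the mean of miR-146a and those of 95 other names within 1 SD of that of miR-146b. The neighbours in the order were named for their position after values were seen. They are by that choice next to the members in mean, so their small differences are not a result. For miR-146a these were miR-660 (561 ± 286 TPM, SD, n = 3) and miR-16a (523 ± 171 TPM), each above miR-146a in 2 of 3 libraries. For miR-146b they were miR-181c (178 ± 117 TPM) and miR-140 (175 ± 57.5 TPM), again each above it in 2 of 3 libraries.

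Whether one member of the pair predominated was asked within each library. miR-146a exceeded miR-146b in 3 of 3 libraries, by 2.89-fold, 2.45-fold and 5.41-fold. The mean difference of log2(TPM + 1) was 1.74 ± 0.60 (SD, n = 3; p = 0.25 by exact permutation of the signs, two-sided, the smallest p that 3 libraries allow). This test therefore cannot pass a threshold of 0.05.

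The balance of the pair was not the same in the 3 libraries. miR-146a made up 74.3% of the summed pair in library 1 (95% Wilson interval 73.4% to 75.2%), 71.0% in library 2 (69.03% to 72.9%) and 84.4% in library 3 (82.98% to 85.8%). The 3 intervals do not overlap, and library 3 stood furthest from the other two. These intervals reflect error in the counting of reads alone. Whether PCR copies were marked by molecular identifiers is not known here. Unmarked copies would count as separate reads, so the intervals may be too narrow for counts of molecules. The sources used here do not say how the authors divided reads between such similar mature sequences, and its part in the balance was not tested.

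**Figure D1:**
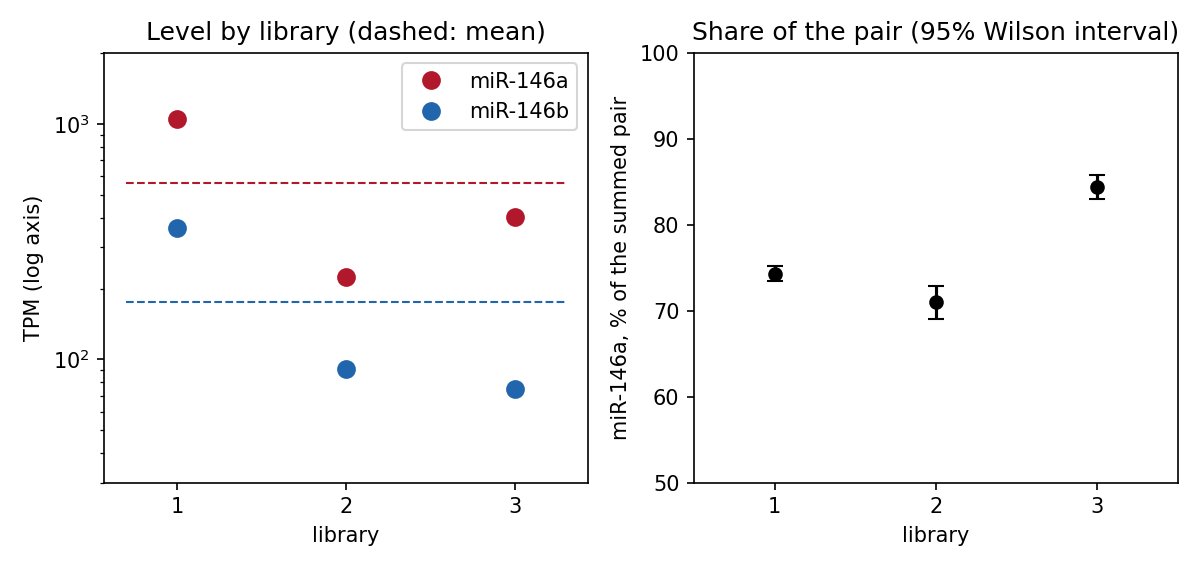
Left, TPM of miR-146a and miR-146b in each of the 3 libraries on a log axis, with dashed lines at the means of 558.6 and 176 TPM. Right, miR-146a as a percentage of the summed pair, with 95% Wilson intervals on an axis from 50 to 100%. Library 1 is highest for both members, and library 3 has the largest share of miR-146a (84.4%).

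The same difference was computed for each of the other 14 pairs of tested names that differ only by a final a or b, a rule added after the data were seen. In the SD of the difference between libraries the miR-146 pair ranked 4 of 15, with 0.60 against a median of 0.40 over the others. The others ranged from 0.0046 for miR-125a and miR-125b to 0.78 for miR-26a and miR-26b. A balance that moved between libraries by this much was thus also found for other paired names. Which member of a pair was the more abundant did not change between libraries for any of the 15 pairs, the miR-146 pair included.

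Between libraries 2 and 3 the pair parted. miR-146a was 1.81 times as high in library 3 as in library 2, a difference of -0.85 log2 units (library 2 minus library 3) against a median of -0.93 over the tested names. That places miR-146a at percentile 55.2 of the tested names, close to the middle. miR-146b instead was 1.22 times as high in library 2, a difference of 0.28 log2 units, 1.21 above the same median and at percentile 94.5.

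Against library 1 both members differed more than most tested names. The difference of library 1 minus library 2 was 2.23 log2 units for miR-146a (percentile 90.9) and 1.98 for miR-146b (percentile 86.1), where the median tested name differed by 1.12. Library 1 minus library 3 gave 1.37 for miR-146a (percentile 94.5) and 2.27 for miR-146b (percentile 99.4), where the median was 0.27. For miR-146b only 1 of the 166 tested names was higher in library 1 than in library 3 by more.

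Both members were among the more variable names of the table. The SD of log2(TPM + 1) was 1.12 for miR-146a and 1.23 for miR-146b, against a median of 0.66 over the tested names. These SDs ranked 20 and 12 from the most variable of 166, which is percentile 88.5 and 93.3. After size factors the SD of miR-146a was 0.62 (percentile 81.8) and that of miR-146b 1.01 (percentile 94.5), where the median had become 0.29. Library 1 set the spread of the deposited values. Without it the SD was 0.60 for miR-146a (percentile 41.8) and 0.20 for miR-146b (percentile 5.45). These are deposited values, in which the median tested name differed by -0.93 log2 units (library 2 minus library 3), a shift that miR-146b did not follow. After size factors library 2 was at 1.05 times library 3 for miR-146a and at 2.32 times for miR-146b, so the low percentile of miR-146b does not mean a steady level.

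**Figure D2:**
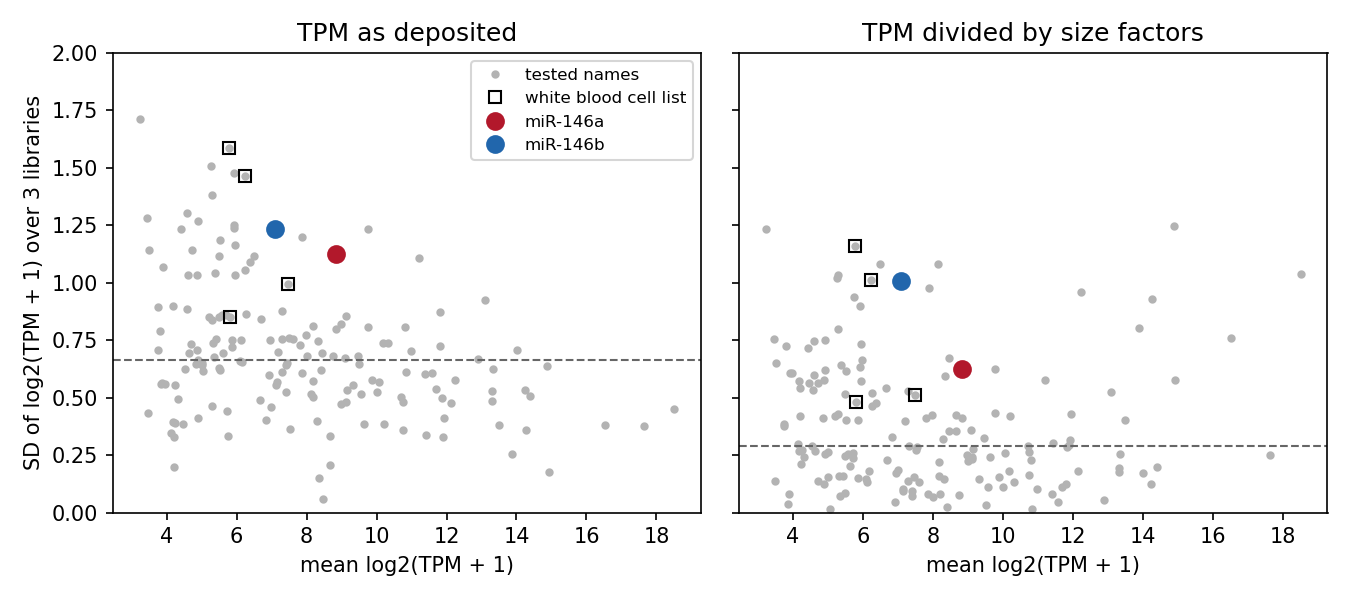
SD of log2(TPM + 1) over the 3 libraries against the mean of log2(TPM + 1) for the 166 tested names, from TPM as deposited (left) and after size factors (right). Grey dots are tested names, open squares the 4 tested members of the white blood cell list, and dashed lines the medians of 0.66 and 0.29; miR-146a (red) and miR-146b (blue) lie above the median in both panels.

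After size factors, the deviation of each member from its own mean was taken in each library on the log2 scale. miR-146a deviated by 0.72, -0.32 and -0.39 in libraries 1, 2 and 3. miR-146b deviated by 0.93, 0.13 and -1.07. Library 1 was high for both, at percentile 92.7 and 97.0 of the tested names. In library 3, miR-146b had the second lowest deviation of all tested names (percentile 0.606), whereas miR-146a stood at percentile 13.9.

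Other miRNAs that background knowledge links to NF-kB or to inflamed tissue did not share this profile as a list. All 10 names of the list were found, and 7 were tested. Their median deviation after size factors was 0.06, 0.02 and -0.06 in the 3 libraries, against -0.01 in each for all tested names. The latter is fixed near no deviation, because the size factors were taken over the tested names. After size factors, 4 of the 7 lay above their own mean in library 1, where 46.4% of the tested names did. In deposited TPM, 6 of the 7 were highest in library 1, where 69.3% of the tested names were. miR-155, an NF-kB target of activated immune cells, had 106.8, 33.7 and 45.2 TPM and was the one tested member of the list that deviated by more than 0.3 in library 1 (0.48). miR-21-5p, induced in many inflamed tissues, had 5539, 2072 and 4025 TPM and deviated by only 0.14, -0.09 and -0.06.

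The remaining names of the list were spread in level and direction. miR-125b (1743 ± 625 TPM, SD, n = 3), which targets tumour necrosis factor in mouse macrophages, was highest in library 2 after size factors (0.25). miR-9-5p (16.9 ± 4.35 TPM), induced in human monocytes by Toll-like receptor signals, was also highest there (0.34). miR-132 (18.97 ± 7.00 TPM), another early induced miRNA of human monocytes, was highest in library 3 (0.25). miR-221 (126.5 ± 46.1 TPM) and miR-301a (114 ± 55.3 TPM) deviated by less than 0.3 in every library. Below the minimum were miR-223 (7.50 ± 3.77 TPM), miR-222 (5.77 ± 3.09 TPM) and miR-147 (2.47 ± 0.586 TPM).

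The white blood cell list was highest in library 1, like both members. In deposited TPM its sum was higher in library 3 than in library 2, as was miR-146a, whereas miR-146b was lower. After size factors, the median deviation of its tested names and both members were all lower in library 3 than in library 2. The list shares miR-155 and miR-223 with the inflammation list. All 5 of its names were found and 0 were at 0 TPM in any library, and 4 were tested, of which 4 were highest in library 1 in deposited TPM. Its summed level ranged from 190 to 914 TPM, with 914 in library 1, 190 in library 2 and 296.5 in library 3. The median deviation of the tested names after size factors was 0.87, -0.34 and -0.58, and 4 of 4 lay above their own mean in library 1. miR-142-5p, specific to blood cells, had 233, 32.3 and 53.4 TPM, and its other arm miR-142-3p had 189, 23.2 and 34.3 TPM. miR-150, a miRNA of mature lymphocytes, had 373, 94.4 and 159 TPM. miR-223, which marks myeloid cells, had 11.7, 6.4 and 4.4 TPM. It was below the minimum mean and so not tested. After size factors miR-223 deviated by 0.23, 0.52 and -0.74, highest in library 2 and not in library 1. The part of white blood cell content in the levels of miR-146a and miR-146b was not tested.

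**Figure D3:**
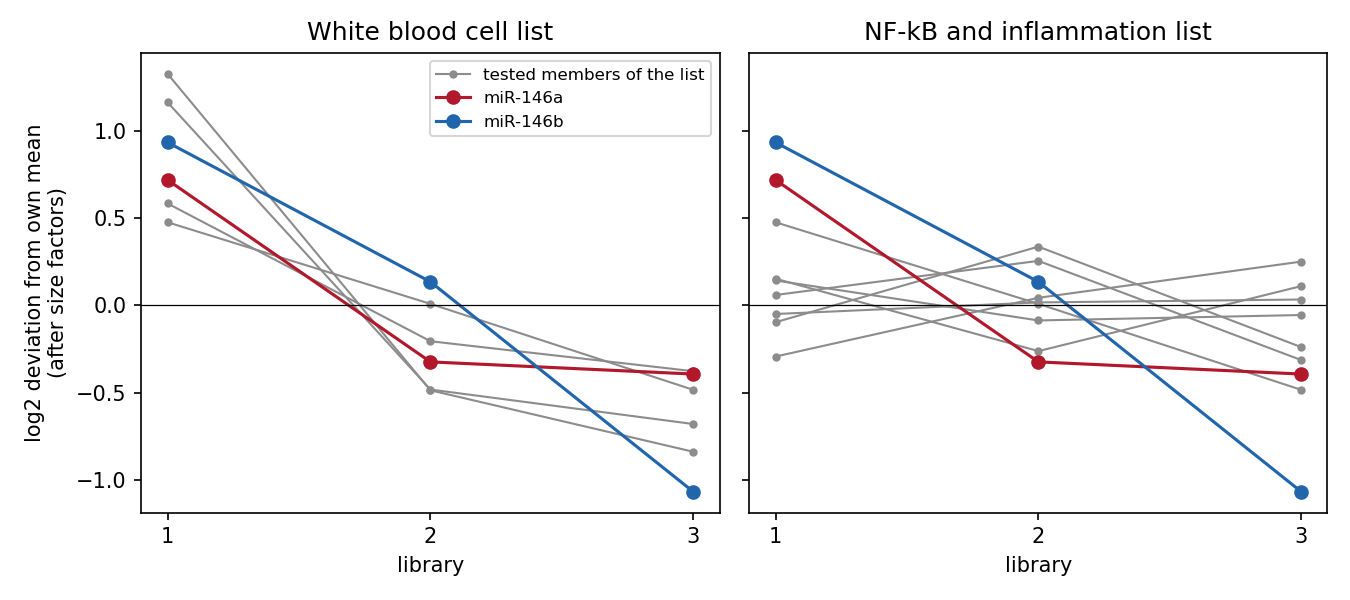
Log2 deviation of each name from its own mean over the 3 libraries after size factors, for miR-146a (red), miR-146b (blue) and the tested members (grey) of the white blood cell list (left, 4 names) and of the NF-kB and inflammation list (right, 7 names). Lines join the values of one name and imply no order of libraries; the members and the white blood cell names are all above their mean in library 1, the inflammation names spread on both sides of it.

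Set against the summed white blood cell list, miR-146a kept a nearly even ratio of 1.15, 1.17 and 1.36 in libraries 1, 2 and 3, so that the highest was 1.19 times the lowest. For miR-146b the ratio was 0.396, 0.479 and 0.252, the highest being 1.91 times the lowest. Against the other lists with tested names the ratios were less even. The highest ratio of miR-146a was 2.12 times the lowest against the red blood cell list, 2.47 times against endothelium, 2.84 times against smooth muscle, 2.19 times against fibroblast stroma, 4.07 times against fat cell miRNAs and 1.94 times against the inflammation list. For miR-146b the corresponding figures were 3.97, 4.62, 4.22, 4.10, 3.73 and 3.42 times. These are descriptions, and a sum follows its most abundant names. The SD over libraries of the log2(TPM + 1) difference to miR-146a differed between the tested members of the white blood cell list. It was 0.13 for miR-150, 0.31 for miR-155, 0.39 for miR-142-5p and 0.54 for miR-142-3p. miR-410, outside the lists, had 0.04, so an even ratio to miR-146a was not particular to white blood cell names.

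The ratio of miR-146a to the white blood cell list was as even without library 1 (1.16-fold), but it then no longer stood apart from the other lists. Without library 1 the ratio to the red blood cell list varied 1.09-fold, that to endothelium 1.01-fold and that to the inflammation list 1.06-fold. For miR-146b without library 1, the ratio to the fat cell list varied least, 1.09-fold, and that to the white blood cell list 1.91-fold. The labelled tissue could not be checked against a marker found in fat cells alone. The 6 fat cell miRNAs, such as miR-378 at 2824, 1158 and 2533 TPM, summed to 124774 to 162429 TPM. Striated muscle names (4 of 4 found, 0 tested) summed to 9.7 to 32.4 TPM, with miR-206 at 0 TPM in libraries 2 and 3. Epithelial names (5 of 5 found, 0 tested) summed to 7.1 to 15.4 TPM, with miR-200b at 0 TPM in libraries 1 and 2 and miR-205 at 0 TPM in library 2.

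**Figure D4:**
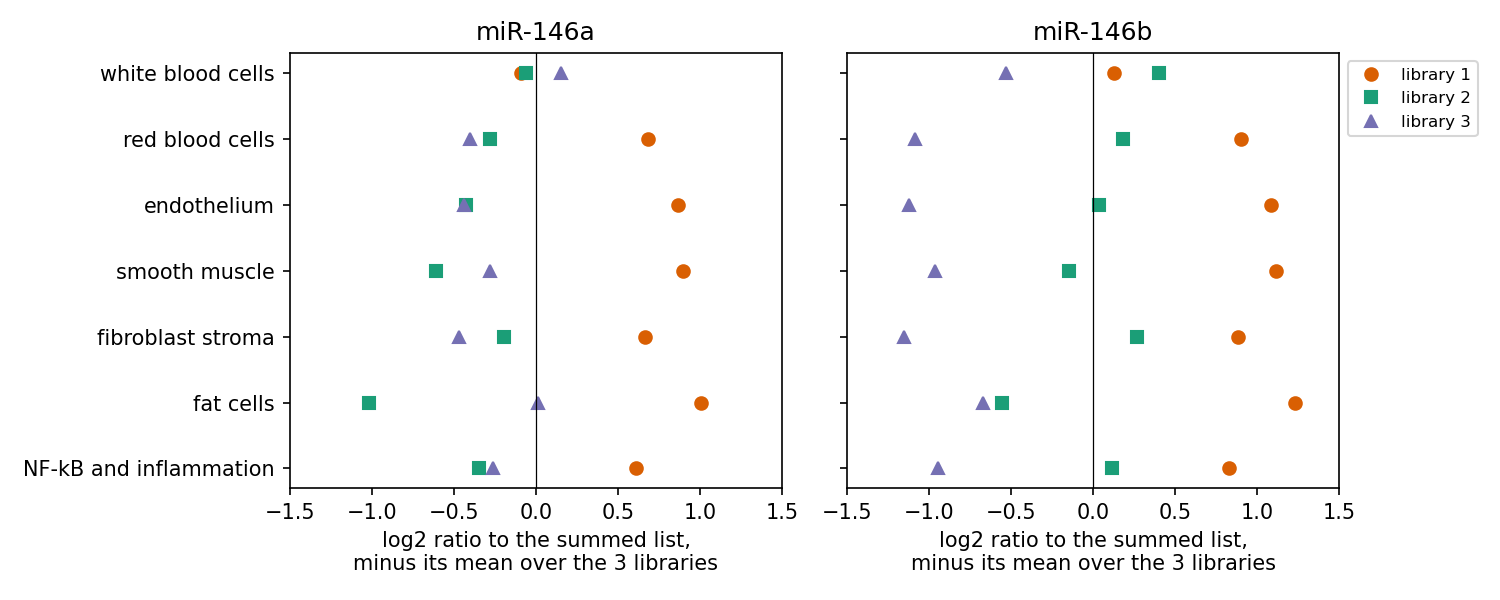
Log2 ratio of miR-146a (left) and miR-146b (right) to the summed TPM of each list with tested names, minus the mean of that log2 ratio over the 3 libraries. Points close together mark an even ratio, as for miR-146a against the white blood cell list (1.15, 1.17 and 1.36); the point of library 1 is furthest right for both members against every other list.

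The names with the most similar profile were found by the SD over the 3 libraries of the log2(TPM + 1) difference to each member, in which 0 means a constant ratio and scaling of a library hardly matters. For miR-146a the 5 nearest of 165 names were miR-410 (SD 0.04), miR-411a (0.07), miR-487b (0.09), miR-381 (0.11) and miR-136 (0.13). miR-410 had 147, 28.8 and 54.7 TPM, a nearly constant fraction of miR-146a. miR-411a had 5220, 1130 and 2211 TPM and was the most abundant of the 5. Names this close to miR-146a also resemble one another, so the 5 do not count as separate matches. miR-150 followed at rank 6 (0.13), miR-155 stood at rank 14 (0.31) and miR-142-5p at rank 21 (0.39).

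For miR-146b no name was as close. The 5 nearest were miR-409a (SD 0.35), miR-92b (0.43), miR-15b (0.44), miR-181c (0.48) and miR-127 (0.51). miR-409a had 203.8, 79.6 and 43 TPM, with library 3 lowest as for miR-146b. miR-155, miR-142-3p and miR-142-5p followed at ranks 6, 7 and 8 (0.53 each), and miR-150 at rank 11 (0.60).

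The members were not each other's closest match. Their difference had an SD of 0.60, which put miR-146b at rank 50 of 165 around miR-146a, where the median name had 0.68, and miR-146a at rank 12 of 165 around miR-146b, where the median was 1.04. With 3 libraries such an order is fragile. Without library 1, 2 or 3, miR-146b stood at rank 148, 49 and 14 around miR-146a, and miR-146a at rank 74, 9 and 12 around miR-146b. Without library 1, 0 of the 5 nearest names were kept for either member. Without library 2, 2 of 5 were kept for each, and without library 3, 2 of 5 for miR-146a and 1 of 5 for miR-146b.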

How the data were processed

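Small RNA of 3 adipose libraries was sequenced after TRIzol extraction and adaptor ligation, per the labels' protocols. The authors deposited TPM values, per the file headers, with 1 decimal and a sum of about 1000000 per library; all 3 value columns were mapped by name and 0 were left out. Per the submitters' processing notes, Bowtie and UMD3.1, a bovine genome build, were used in a role not stated. How reads were counted, by which annotation, and where reads matching several miRNAs went is not stated either.

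The worth of 1 read was estimated as the step on which values up to 30 TPM lie (0.146, 0.148 and 0.182 TPM; 99.5%, 99.7% and 100% of low values on it, within rounding). The floor of 3 reads was 0.437, 0.443 and 0.547 TPM. The fitted step missed the true one by at most 0.0474% in simulated tables of 622 names. Rounding is coarse against the step, so no count model was fitted.

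Values were analysed as log2(TPM + 1), a scale that understates the change of low names, in Python 3.11.15 with SciPy 1.17.1. A percentile is the share of the other tested names with a lower value. Named miRNAs are the members, the 5 nearest tested names to each, and the lists. Also named are the neighbours in the order of means and the extremes of the a and b pairs, chosen after values were seen. miR-10b is named because it was left out in an alternative calculation. On simulated profiles of 166 names, a planted partner with a nearly constant ratio was among the 5 nearest in 92% of runs. The simulated names varied independently, whereas the real names shifted together, so this figure does not carry over to the order found here. The members and lists were chosen with earlier results of these data known. Comparisons with other a and b pairs and ratios to summed lists were added after the data were seen. No sequence is printed, and genome positions are not used here.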

Additional observations from a re-analysis of the deposited data

How the results depend on the processing

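Of 57 alternative values, 47 stayed within set limits, 10 went beyond them and 0 reversed. The limits were its SD for a mean, 1.5-fold for an SD or a rank, and 10 points for a percentile. The difference between miR-146a and miR-146b was judged by its sign only, and no other result could be scored as reversed. The mean TPM moved by less than its SD throughout, an SD that is wide: without 1 library it ran from 313 to 726 for miR-146a and from 82.8 to 227 for miR-146b, lowest without library 1. miR-10b had the highest mean log2(TPM + 1) of the tested names (18.5). With miR-10b left out and the rest rescaled, the mean TPM was 847 for miR-146a and 265 for miR-146b. The SD of log2(TPM + 1) was then 0.86 and 1.02. After size factors the mean TPM was 490 and 158. miR-146a stayed above miR-146b under each pseudocount, under size factors, without miR-10b and without each library (difference of log2 values 1.41 to 1.98). Size factors moved the SD of miR-146a to 0.62. Without 1 library, that SD ran from 0.60 to 1.58 and its percentile from 41.8 to 93.9, while for miR-146b the SD ran from 0.20 to 1.60 and the percentile from 5.45 to 99.4. In each of these SDs and percentiles the lowest value is that without library 1, from TPM not divided by size factors. The rank of miR-146b among the names nearest to miR-146a was 86 with no minimum mean, 77 with a minimum of 1 TPM and 21 with a minimum of 100 TPM, in which the number of names compared differs. It ran from 14 (without library 3) to 148 (without library 1) when 1 library was left out. No paired analysis between groups was possible because there is a single group; the members were compared within libraries. The sign permutation of 3 libraries cannot pass 0.05. Depth limits only names near the floor of 3 reads, far below both members.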
